A study of Gallus gallus with 6 samples.

Results

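The heterophil granule and antimicrobial genes were 10 chicken genes, named by symbol: RSFR, RNASE6, LBP, S100A12, LECT2, CATH1, CATH2, CATH3, LYZ and CRISP2. Their members on the array were the probe sets whose annotated gene symbol is one of these names, and every such probe set was kept. They numbered 13 of the 38439 probe sets tested. Of the 10 genes, 7 were measured by 11 probe sets that carry 1 symbol, RSFR was measured only by 2 probe sets annotated to RSFR and RNASE6 together, and CATH2 and CATH3 had no annotated probe set and were not analysed here. Where a gene had several probe sets, the brightest over the 6 arrays led.

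The chorioallantoic membrane (CAM) is the vessel-rich organ through which the bird embryo breathes. Brown Leghorn chick embryos were cultured for 10 days, at first in the egg and then in dishes without the shell, and a patch of the CAM was then wounded by shallow scalpel cuts and scraping of its epithelium and covered with a nylon grid. Wound tissue and uninjured CAM of the same 3 eggs were taken 6 days later, giving 3 wound and 3 control arrays (Affymetrix chicken GeneChip). No genotype differed between the groups and no drug was given, and the wound and the grid that lies on it cannot be told apart. Both groups are whole tissue, so a change in the number of cells of a type and a change of RNA per cell cannot be told apart either.

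Heterophils are the granulocytes of birds and do the work that neutrophils do in mammals. They are among the first leukocytes to enter a wound, and they kill microbes largely with small cationic proteins held in granules, among them cathelicidins and beta-defensins, since they lack myeloperoxidase. Much of the granule cargo is made early, while the cell is still a myeloid precursor, whereas other antimicrobial genes are also used by macrophages, epithelia and the liver.

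All values are the authors' log2 intensities after robust multi-array averaging (RMA), in which 1 unit is a doubling. The median of an array lay between 3.01 and 3.05, and probe sets near that level carry little signal. A gene passed the test when its adjusted p was under 0.05 in limma, with Benjamini-Hochberg adjustment over all 38439 probe sets and any fold. A second fit took the replicate number, shared by a wound and a control, as a block, and its adjusted p is called blocked and is given where it changes a call.

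The member genes fell into those that rose in the wound and those that did not pass. RNASE6, LBP, S100A12 and CRISP2 rose, from 2.33-fold for S100A12 to 8.33-fold for CRISP2. LECT2, CATH1 and LYZ did not pass, with differences from -0.19 to -0.17 on the log2 scale, and their wound and control arrays overlapped. Thus 4 of 7 member genes and 5 of 13 member probe sets were higher, beside 2.04% of all probe sets, and 0 were lower, beside 0.304%. At an unadjusted p under 0.05, limma gave 4 genes higher and 0 lower. The share of all probe sets at that p is not given for this fit or the blocked one. This count and the like counts of the gene lists below therefore have no background. All 4 genes that rose also exceeded a fold of 2, a limit that with the adjusted p admits 0.541% of all probe sets as higher and 0.13% as lower. With the block 2 of the 7 genes stayed past the test, RNASE6 and CRISP2, against 0.702% of all probe sets higher and 0.117% lower. All wounds lay above all controls for 4 of 7 genes and 7 of 13 probe sets, beside 13.7% of all probe sets, and below them for 0, beside 6.12%. The median log2 difference was 1.22 over the 7 genes and 0.0 over all probe sets.

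**Figure D1:**
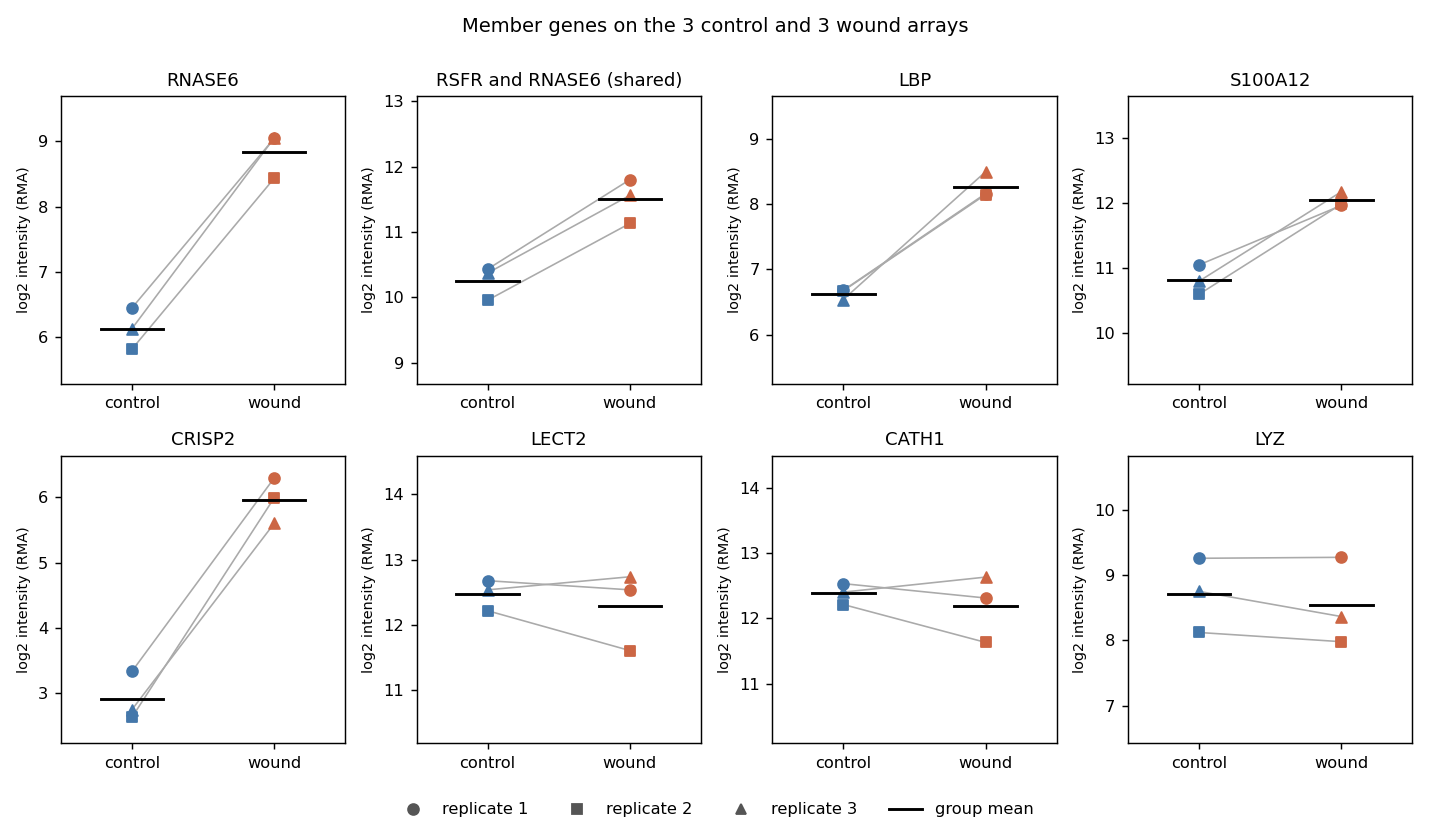
Log2 intensity (y axis) of each member gene on the 3 control (blue) and 3 wound (red) arrays, with 1 marker shape per replicate number, a grey line between the arrays of equal number and a black bar at the group mean. Every panel spans the same number of log2 units. RNASE6, the shared probe set of RSFR and RNASE6, LBP, S100A12 and CRISP2 have all 3 wounds above all 3 controls, whereas the groups overlap for LECT2, CATH1 and LYZ.

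Among the ribonucleases RNASE6 rose, and the probe sets that RSFR shares with it depended on the fit. RNASE6 belongs to the RNase A superfamily, and the human gene of that symbol encodes an antimicrobial ribonuclease of monocytes and neutrophils. The study names this probe set leukocyte ribonuclease A-1, and RefSeq keeps ANG as a synonym of the chicken gene. The role of the human gene may therefore not carry over. Its own probe set read 6.45, 5.82 and 6.13 in controls 1, 2 and 3 and 9.05, 8.44 and 9.05 in wounds 1, 2 and 3. The lowest wound was higher than the highest control by a wide margin, and the array of replicate 2 was the lowest of each group. RNASE6 rose 6.54-fold, by 2.71 log2 units (SE 0.25, 95% interval 2.06 to 3.36, limma adjusted p = 0.0221). The differences within equal replicate numbers were 2.60, 2.62 and 2.92, so the rise was of like size in each. The call was lost at adjusted p = 0.0508 after quantile normalisation, and at 0.0649, 0.0747, 0.0847 and 0.0625 without control 1, 2, 3 or wound 1, while the difference stayed between 2.55 and 2.92 log2 units.

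RSFR, a related ribonuclease known from chicken marrow cells, could be seen only through the 2 probe sets that it shares with RNASE6, and the RefSeq annotation (GRCg7b) places both genes next to each other. A value of such a probe set belongs to neither gene alone. The brighter one read 10.43, 9.95 and 10.37 in the controls and 11.80, 11.13 and 11.56 in the wounds, again with replicate 2 lowest in both groups. The wounds were above the controls, by 1.25 log2 units or 2.37-fold (SE 0.22, 95% interval 0.66 to 1.83), but limma's adjusted p was 0.0774, and 0.0448 blocked. The other read 9.998, 9.352 and 9.927 in the controls and 11.32, 10.66 and 11.06 in the wounds. It differed by 1.25 log2 units as well, with an adjusted p of 0.0993, and 0.0443 blocked. Both thus missed the threshold without the block and passed it with the block.

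Of the other ribonuclease genes, with the ribonuclease inhibitor gene RNH1 counted among them, 2 of 5 measured rose and 0 fell, with a median difference of 0.72. RNASET2, a lysosomal ribonuclease of another family, rose 2.28-fold (1.19 log2 units, SE 0.15, adjusted p = 0.0371, blocked 0.0801). RNH1, the cytosolic inhibitor that binds ribonucleases of the RNase A type, rose 1.78-fold (0.83 log2 units, SE 0.07, adjusted p = 0.0172, blocked 0.0595). RNASEK and RNASEH2B did not pass, with differences of 0.39 and 0.23. The block left 0 of these 5 genes past the test in limma (5 higher and 0 lower at an unadjusted p under 0.05).

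LBP binds bacterial lipopolysaccharide and hands it to the receptor complex of TLR4, and its close relative BPI is a granule protein of mammalian neutrophils. The study lists this probe set under the name BPI. LBP read 6.68, 6.67 and 6.54 in the controls and 8.160, 8.145 and 8.495 in the wounds. The 3 controls lay close together, and wound 3 was the highest of all. LBP rose 3.11-fold, by 1.64 log2 units (SE 0.11, 95% interval 1.34 to 1.93, limma adjusted p = 0.0153, blocked 0.0622). It had the narrowest interval of the 4 genes that rose. Without control 1, 2 or 3 the adjusted p was 0.0592, 0.0625 and 0.0669.

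Genes that recognise lipopolysaccharide or act behind its receptor were counted beside LBP. The same list also holds Toll-like receptors other than TLR4, such as TLR2A, TLR3, TLR5 and TLR7, so its count is not of lipopolysaccharide genes alone. In it 4 of 26 measured rose and 0 fell, with a median difference of 0.27. LY96, the MD-2 subunit that holds the lipid on TLR4, rose 7.94-fold (2.99 log2 units, SE 0.19, adjusted p = 0.0139). TLR4 itself read 2.680, 2.645 and 2.685 in the controls and 3.82, 3.89 and 4.21 in the wounds, a rise of 2.47-fold (SE 0.11 log2 units, adjusted p = 0.019, blocked 0.0589). The controls of TLR4 lay under the array medians, where a fold can be understated. LITAF, a factor induced by lipopolysaccharide, rose 8.97-fold (adjusted p = 0.0345, blocked 0.114), and the cytokine gene IL1B rose by 1.27 log2 units (adjusted p = 0.0369, blocked 0.0867). NFKBIA, the inhibitor of NF-kB, and the kinase gene MAP3K7, the brightest of those that did not pass, differed by 0.21 and 0.49. With the block LY96 alone stayed past the test among these 26.

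S100A12 is a calcium-binding protein of the calgranulin group, which in mammals fills the cytosol of neutrophils and acts on bacteria by withholding metals. The study gives this probe set the name S100A9, which RefSeq keeps as a synonym. S100A12 read 11.05, 10.60 and 10.80 in the controls and 11.96, 11.98 and 12.17 in the wounds. The probe set was already bright in uninjured CAM, and no wound reached down to a control. S100A12 rose 2.33-fold, by 1.22 log2 units (SE 0.13, 95% interval 0.87 to 1.57, limma adjusted p = 0.0294, blocked 0.0772). Quantile normalisation gave 0.86 log2 units with adjusted p = 0.138, and leaving out any 1 of the 6 arrays gave adjusted p from 0.0531 to 0.111, so that S100A12 was the one gene of the 4 whose call held in none of those 6 fits. Among the 7 other S100 genes measured, 1 rose and 0 fell, with a median difference of 0.13. S100A11 rose 1.46-fold (0.55 log2 units, SE 0.05, adjusted p = 0.0243, blocked 0.063). S100A6 differed by the same 0.55 log2 units and missed the threshold (adjusted p = 0.0594, blocked 0.0469), and S100A10 differed by 0.40 (adjusted p = 0.348).

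CRISP2 encodes a cysteine-rich secretory protein. A human member of this family, CRISP3, is stored in neutrophil granules, and the study uses that name for the chicken probe set. The leading probe set read 3.34, 2.63 and 2.75 in the controls and 6.30, 5.99 and 5.60 in the wounds. The controls lay around the array medians, so there was little or no signal in uninjured CAM, and each wound was clearly above it. CRISP2 rose 8.33-fold, the most of the member genes, by 3.06 log2 units (SE 0.27, 95% interval 2.36 to 3.76, limma adjusted p = 0.0211), and since low RMA values are compressed this fold can be understated. Quantile normalisation gave adjusted p = 0.0521, and leaving out control 2, control 3, wound 1 or wound 2 gave 0.0759, 0.0806, 0.0507 and 0.0672.

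The other probe sets of CRISP2 did not give the same size of change. The second read 1.90, 1.91 and 1.90 in the controls and 4.03, 3.53 and 3.19 in the wounds, and rose 3.22-fold (1.69 log2 units, SE 0.22, adjusted p = 0.0409, blocked 0.0881). It lost the call at adjusted p between 0.117 and 0.149 without control 1, 2, 3 or wound 2. The third read 3.35, 3.47 and 3.37 in the controls and 3.85, 3.75 and 3.46 in the wounds, where wound 3 lay below control 2, and it did not pass (0.29 log2 units, adjusted p = 0.352). All 3 probe sets pointed the same way, and the mean over them differed by 1.68 log2 units.

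The leading probe sets of RNASE6, LBP, S100A12 and CRISP2 and 1 of those shared by RSFR and RNASE6 stand in lists that the study chose on these same samples, so their direction here is no independent evidence.

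**Figure D2:**
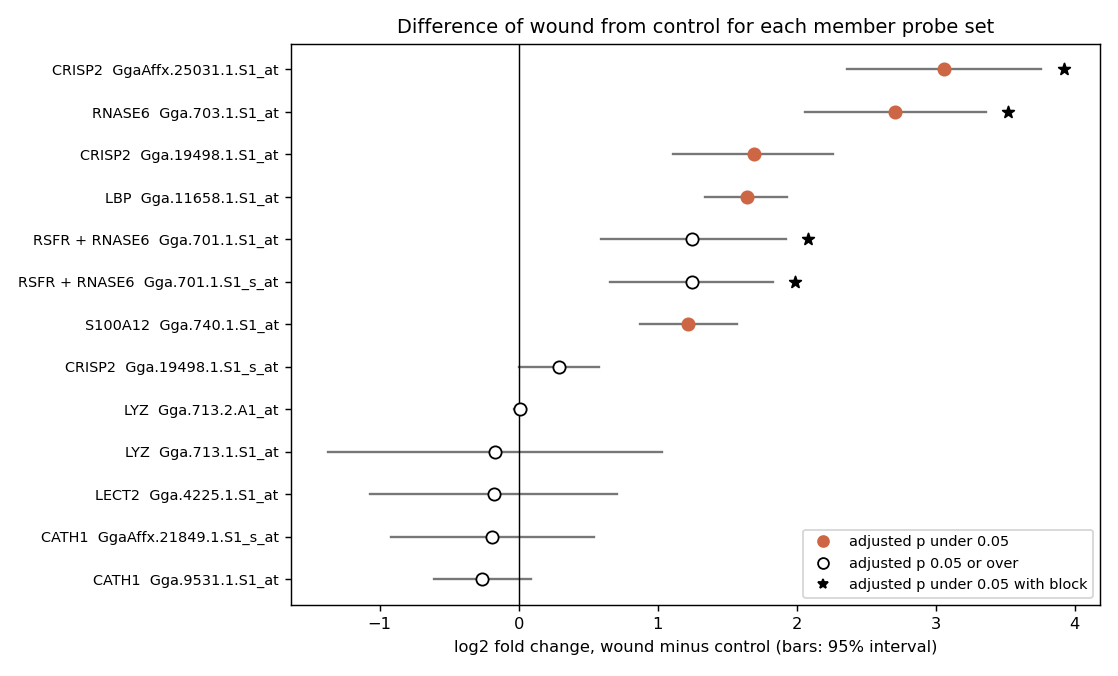
Log2 fold change of wound over control (x axis) for each of the 13 member probe sets (y axis, by gene and probe set identifier), with its 95% interval as a bar. Filled points have an adjusted p under 0.05 in limma without the block, and stars mark an adjusted p under 0.05 with the block. The 5 filled points lie between 1.22 and 3.06, and the widest intervals are those of LYZ and LECT2.

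The member genes LECT2, CATH1 and LYZ did not pass the test. LECT2, known in chicken as mim-1, is a secretory protein that promyelocytes make in bulk under the control of Myb and store in granules. Its probe set read 12.68, 12.22 and 12.54 in the controls and 12.54, 11.61 and 12.74 in the wounds. The probe set was bright on all 6 arrays, and the groups overlapped, with the highest and the lowest reading both in wounds. LECT2 differed by -0.18 log2 units (SE 0.34, limma adjusted p = 0.959). The 95% interval, -1.07 to 0.71, reaches from 0.477-fold to 1.63-fold, so that it leaves out a rise of the size seen for any of the 4 genes above but not a smaller change either way.

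CATH1 encodes a cathelicidin, a peptide that perforates bacterial membranes and is stored as a precursor in heterophil granules. Its leading probe set read 12.53, 12.21 and 12.40 in the controls and 12.31, 11.63 and 12.63 in the wounds. The order of the 6 arrays was close to that of LECT2, and the groups overlapped. CATH1 differed by -0.19 log2 units (SE 0.28, 95% interval -0.92 to 0.54, adjusted p = 0.921). The second probe set read 10.12, 9.97 and 10.19 in the controls and 9.97, 9.57 and 9.97 in the wounds, a difference of -0.26 (SE 0.13, 95% interval -0.61 to 0.09, limma adjusted p = 0.537, blocked 0.199). Within equal replicate numbers it differed by -0.16, -0.39 and -0.22. In RefSeq CATH1 lies in a run of cathelicidin genes with CATHB1, CATH2 and CATH3, and CATH-3 is also listed as a synonym of CATH1, so the values above are those of the probe sets annotated CATH1 and may not be read as those of the others. CATHB1, the cathelicidin between them, was dim on all arrays and differed by 0.00.

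LYZ is lysozyme, which cuts the cell wall of bacteria and is made by myeloid cells and by secretory epithelia. Its leading probe set read 9.26, 8.12 and 8.75 in the controls and 9.272, 7.980 and 8.365 in the wounds. The spread within each group was larger than for any other member gene, and both groups covered nearly the same range. LYZ differed by -0.17 log2 units (SE 0.46, 95% interval -1.37 to 1.03, adjusted p = 0.987), an interval of 0.388-fold to 2.04-fold. The second probe set stayed between 2.08 and 2.11 on all arrays, below the array medians. In an exact two-sided permutation test of single genes the 4 that rose gave p = 0.1, the smallest that 3 arrays against 3 allow, and LECT2, LYZ and CATH1 gave 0.8, 0.8 and 0.7.

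Some of the granule genes, LECT2, CATH1 and LYZ among them, were lowest in replicate 2 of both groups. Control 2 was the lowest control and wound 2 the lowest wound for LECT2, CATH1, LYZ and RNASE6, 4 of 7 member genes or 57.1%, beside 14.9% of the 19219 probe sets above the median level. This was noticed after the values were seen and was not tested. The beta-defensin AvBD1, a major peptide of heterophil granules, read 12.04, 11.16 and 11.84 in the controls and 11.90, 10.95 and 12.15 in the wounds. AvBD7 read 11.47, 11.08 and 11.97 in the controls and 11.82, 11.12 and 12.58 in the wounds. LYG2, a goose-type lysozyme, read from 10.77 to 11.20 in the controls, with 10.77 in replicate 2, and 11.28, 10.55 and 11.58 in the wounds. Each of them was thus lowest in replicate 2 of both groups, as were AvBD4, AvBD5 and AvBD6, of which AvBD5 was dim (means 3.40 in controls and 3.29 in wounds).

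Over all 22 other antimicrobial and granule genes measured, 6 were lowest and 10 were highest in replicate 2 of both groups. Among the 14 of them above the median level, 6 were lowest and 3, AVD, EXFABP and LEAP2, were highest in replicate 2, and of all probe sets above that level 22.3% were highest there. The granule protease gene CTSG was lowest in control 2 but not in wound 2. After the group means were removed, LECT2 correlated with CATH1 at 0.99, with AvBD1 at 0.97, with AvBD6 and LYG2 at 0.95 and with RNASE6 at 0.92. Its correlation was 0.86 with AvBD7, 0.66 with LYZ, 0.56 with S100A12, 0.55 with LBP and 0.07 with CRISP2 (Pearson's r over 6 arrays, which share 3 eggs and a total of 0 in each group, so these are descriptions with no test). RNASE6 therefore carried both a difference between the groups and the order of the replicates that LECT2 showed. Leaving out both arrays of replicate 2, chosen after seeing the data, gave differences of 2.76 for RNASE6, 1.72 for LBP, 1.14 for S100A12 and 2.91 for CRISP2, with adjusted p from 0.107 to 0.197 and 0 of 38439 probe sets past the test (3185 higher and 1174 lower at an unadjusted p under 0.05).

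**Figure D3:**
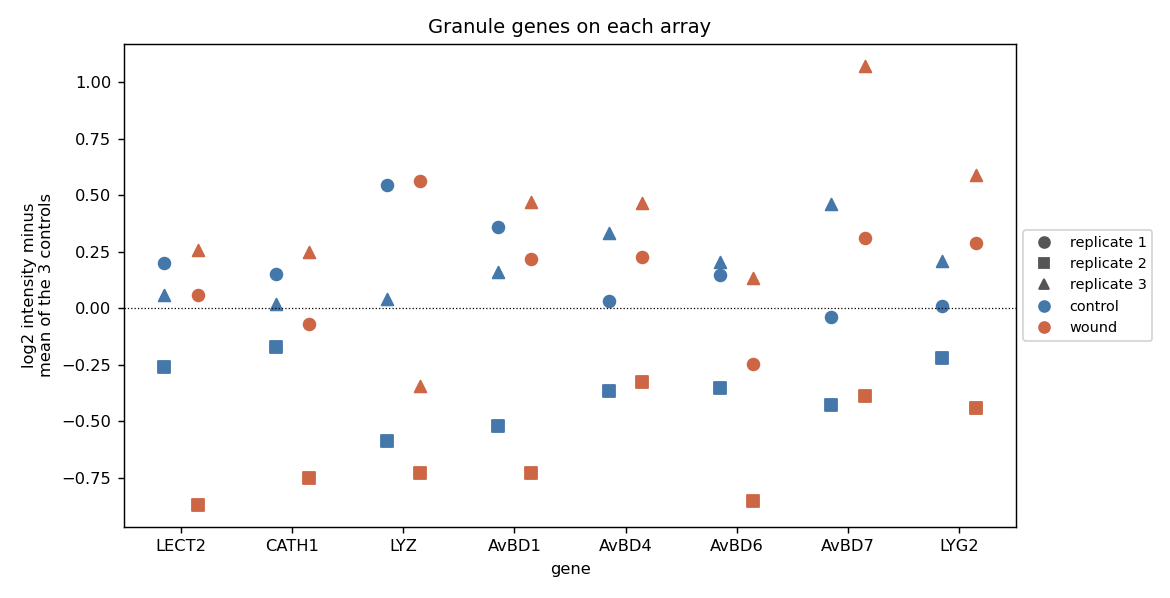
Log2 intensity minus the mean of the 3 controls (y axis) for LECT2, CATH1, LYZ, 4 beta-defensins and LYG2 (x axis), with controls in blue, wounds in red and 1 marker shape per replicate number. The genes other than the members were chosen after their values were seen. The squares, replicate 2, are the lowest control and the lowest wound for each gene, and controls and wounds overlap throughout.

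None of the 12 avian beta-defensins measured passed the test (limma, 0 also at an unadjusted p under 0.05, and 0 with the block), with differences from -0.32 to 0.34 and a median of -0.01. Only 6 of these 12 had a mean above the median level, and the rest carried little signal in which a change could show. Among the 6, AvBD3 (means 3.67 in controls and 3.64 in wounds) and AvBD5 (3.40 and 3.29) lay close to that level, so they too carried little signal. Over all 22 other antimicrobial and granule genes measured, 1 rose and 0 fell, and the median was 0.0 (5 higher and 0 lower at an unadjusted p under 0.05 in limma). All wounds lay above all controls for 5 of the 22, beside 13.7% of all probe sets, and below them for 0, beside 6.12%. The gene that rose was AVD, avidin, a biotin-binding protein of egg white that chicken tissues also make on injury. It read 9.71, 10.61 and 9.50 in the controls and 12.90, 13.57 and 12.64 in the wounds, a rise of 8.58-fold (3.10 log2 units, SE 0.40, adjusted p = 0.0391). EXFABP, a lipocalin that binds bacterial siderophores, was the brightest that did not pass: it read 12.10, 12.44 and 11.65 in the controls and 13.17, 13.56 and 12.53 in the wounds, a difference of 1.02 (SE 0.35, adjusted p = 0.275). AvBD7 was the next and differed by 0.34 (adjusted p = 0.905).

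Of the genes of granulocyte differentiation and recruitment, 4 of 20 measured rose, 0 fell, 18 had a positive difference and the median was 0.92. SPI1, the PU.1 factor that myeloid cells need, rose 6.09-fold (2.61 log2 units, SE 0.24, adjusted p = 0.0221, blocked 0.087). ITGB2, the beta chain shared by the leukocyte integrins, rose 5.38-fold (adjusted p = 0.0429, blocked 0.129). IL8L2, a chicken chemokine of the interleukin-8 type, rose 3.70-fold (1.89 log2 units, SE 0.13, adjusted p = 0.0153, blocked 0.0563), and CEBPB, a factor of myeloid activation, rose 2.29-fold (adjusted p = 0.0463, blocked 0.0637). The block left 0 of the 20 past the test in limma (10 higher and 0 lower at an unadjusted p under 0.05). MMP9, a gelatinase, and ITGA4, an integrin chain, did not pass, with differences of 1.48 (adjusted p = 0.0896) and 0.13. Over the 79 genes of the 5 related lists together, 12 rose and 0 fell (33 higher and 0 lower at an unadjusted p under 0.05 in limma, a count with no background). CSF3R, the receptor for granulocyte colony-stimulating factor and a defining gene of granulocytes, read 3.83, 3.35 and 4.14 in the controls and 4.39, 5.12 and 4.79 in the wounds, a difference of 0.99 (SE 0.28, adjusted p = 0.199).

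**Figure D4:**
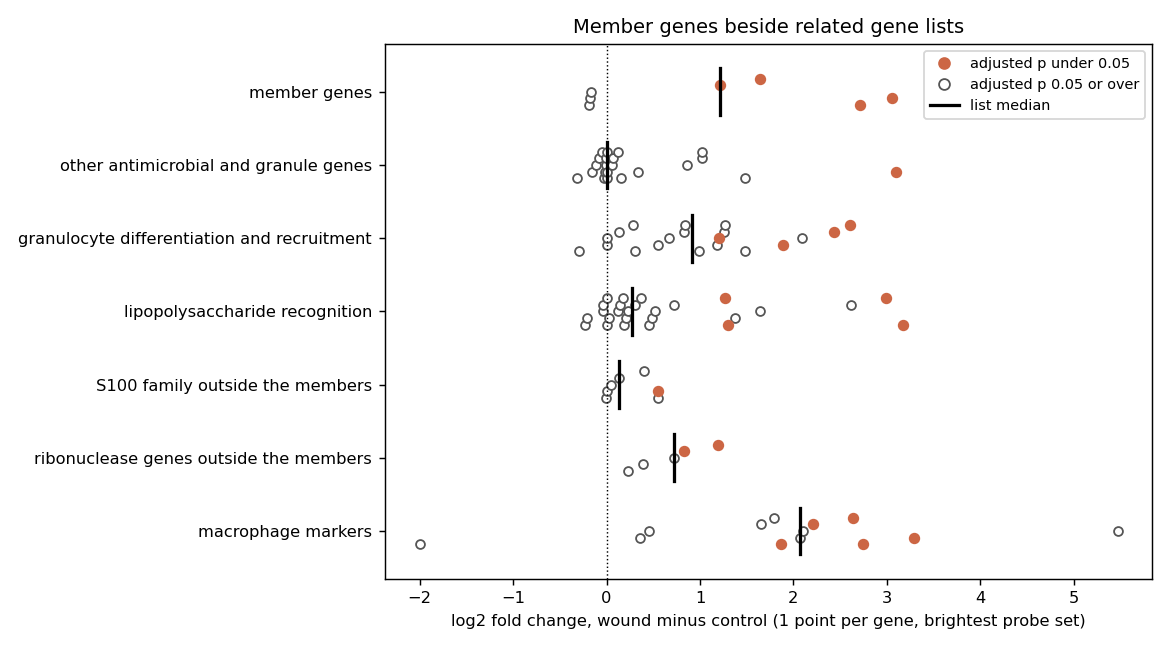
Log2 fold change of wound over control (x axis) for the member genes, the 5 related lists and the macrophage markers (y axis), with 1 point per gene (brightest probe set), filled where the adjusted p in limma was under 0.05, and a bar at the list's median. Medians were 1.22 for the members, 0.0 for the other antimicrobial and granule genes, 0.92 for granulocyte differentiation and recruitment and 2.07 for the macrophage markers.

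The label of the gene group was set against cell type markers. Their counts at an unadjusted p have no share of all probe sets beside them. The 8 heterophil markers measured include members, and the 2 that rose, RNASE6 and S100A12, are members. The 4 that are not, AvBD1, LYG2, CSF3R and EXFABP, gave 0 past the test (limma, 2 higher and 0 lower at an unadjusted p under 0.05), with a summed linear level of 9247 to 10639 in the controls and 13542 to 15581 in the wounds. EXFABP made up most of that difference, as its mean went from 12.06 to 13.09 while AvBD1 and LYG2 differed by -0.02 and 0.15. The granule genes LECT2, CATH1, AvBD1 and LYG2 were bright in uninjured CAM as well, with control means from 10.99 to 12.48, whereas CSF3R was dim there (mean 3.77). Markers of some other cell types moved as well. Of the macrophage markers, 5 of 13 rose (C1QB, CD74, LAPTM5, CTSS and CYBB), 0 fell (10 higher and 1 lower at an unadjusted p under 0.05 in limma), and the median was 2.07. Their mean log2 level was 5.79 to 6.31 in the controls and 7.74 to 8.13 in the wounds, and their summed linear level was 2005 to 2661 and 9936 to 11451. With the block 0 of the 13 passed (11 higher and 1 lower at an unadjusted p under 0.05). Without the block CSF1R, C1QA, C1QC, MARCO, TIMD4, MERTK and SPP1 had positive differences but did not pass (limma adjusted p from 0.0582 to 0.52). Which of the macrophage markers heterophils or other leukocytes also express was not tested. The 1 macrophage marker with a negative difference was MRC1, whose mean went from 6.79 in the controls to 4.79 in the wounds. This was 0.25-fold (limma adjusted p = 0.154), with all wounds below all controls. CAM epithelial markers had a positive difference in 8 of 8, and 2 rose, EPCAM by 0.73 (adjusted p = 0.0147, blocked 0.0541) and CLDN1 by 0.79 log2 units (adjusted p = 0.0109), with a list median of 0.43. Endothelial markers had a negative difference in 9 of 10, with a median of -0.79 and 0 past the test in limma (0 higher and 7 lower at an unadjusted p under 0.05). Fibroblast and smooth muscle markers had one in 11 of 11, with a median of -0.68, and 1 fell, TCF21 (-1.52 log2 units, adjusted p = 0.0309, blocked 0.0775). The part of macrophages, of epithelium and of the other cell types in the rise of RNASE6, LBP, S100A12 and CRISP2 was not tested. Lymphocyte markers were dim as a list, with a mean log2 level of 2.97 to 3.07 in the controls and 3.13 to 3.16 in the wounds and 0 of 14 past the test (2 higher and 0 lower at an unadjusted p under 0.05). CD3D was the brightest, with means of 5.372 in the controls and 6.735 in the wounds (limma adjusted p = 0.0554, blocked 0.149). All wounds lay above all controls for 2 of the 14, CD3D and CD3E, beside 13.7% of all probe sets. Thrombocyte markers had 0 of 4 past the test and a median of -0.08 (1 higher and 0 lower at an unadjusted p under 0.05 in limma). Erythroid markers had 0 of 7 past it and a median of -0.07 (0 higher and 0 lower).

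The genes whose values over the 6 arrays were most like those of each member that rose were searched among 9330 genes. These were genes outside the members whose mean over the 6 arrays was above the median level. For RNASE6 they were SFT2D2, TSPAN2 and RPUSD4, with Pearson's r from 0.9966 to 0.9971. For LBP they were HMGN1, TLR4 and NDUFAF7 (0.9956 to 0.9967). For S100A12 they were COTL1, SPRED1 and TOMM70 (0.998 to 0.9993), and for CRISP2 UBAC1, SCYL2 and CHMP5 (0.9981 to 0.9988). The arrays form 2 groups and share eggs, and any gene with a large difference between the groups and a small spread scores highly, so these values describe likeness of pattern alone. Genes chosen by likeness to a member that rose are bound to be higher in the wound, so their direction is no finding. They were higher by 0.31 log2 units for HMGN1 to 1.46 for COTL1. TLR4 entered the search only through its wounds, as its controls lay under the array medians.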

How the data were processed

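Wound and control CAM of 3 eggs were hybridised to 6 Affymetrix chicken GeneChips, 1 array per sample. The deposited values are log2 intensities, 1 for each probe set, that the authors made with RMA according to the submitters' processing notes. The methods also name GCOS scaling, and no source used here gives an RMA version. Of 38535 probe sets, 96 array controls were left out. Gene symbols came from the platform annotation: 27168 probe sets have 1 symbol, 177 several and 11094 none. For 27161 of the probe sets with 1 symbol, that symbol was found in the RefSeq table (GRCg7b). No gene was named from a probe set with several symbols, and the 2 shared by RSFR and RNASE6 are given as shared. All 6 value columns were used, leaving 0 out.

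Groups were compared with lmFit and eBayes of limma 3.58.1 under R 4.3.3, adjusting p by Benjamini-Hochberg over 38439 probe sets. The SAM analysis of the methods was not run here. The labels do not tie a wound and a control of one number to one egg. With each group's mean subtracted, the pairs numbered 1, 2 and 3 had Pearson's r of 0.58, 0.634 and 0.45 over probe sets, each above 0.1. The pairing was therefore accepted, and a blocked fit by replicate number was run too. The limma p-values set a difference against the spread between arrays, which without the block includes that between eggs. The number of arrays limits the precision.

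The members and the 13 gene lists were chosen with earlier results of these data known. Named are all members, up to 4 genes past the test (by fold) and up to 2 brightest not past it in each of the 5 related lists, and the 3 genes most like each member gene that rose more than 2-fold. CSF3R, LYG2, CTSG, LEAP2, CATHB1, the marker genes and beta-defensins named beyond this rule were chosen after their values were seen. The fit was tested on simulated data, and alternatives were the block, quantile normalisation, a filter on dim probe sets, eBayes with trend and robust, a fold limit, the mean over a gene's probe sets, and leaving out arrays. Tables and plots used Python 3.11.15, pandas 2.3.3, numpy 2.4.6, scipy 1.17.1 and matplotlib 3.10.9.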

Additional observations from a re-analysis of the deposited data

How the results depend on the processing

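RNASE6, LBP, S100A12 and CRISP2 were higher in the wound in every alternative run, whereas their calls depended on the fit and on single arrays. For most of these runs the direction could not change. The block, the filter and the eBayes option leave the difference itself as it is. With all wounds above all controls, leaving out arrays cannot reverse it. Of the 7 member genes, 4 were past the test as higher. The replicate block left 2, quantile normalisation 1, leaving out both arrays of replicate 2 left 0, and leaving out 1 array left 0 (without control 2 or control 3) to 3 (without wound 3). Of the 13 member probe sets, 5 were higher, and quantile normalisation left 1, leaving out both replicate 2 arrays 0, and leaving out 1 array 0 to 4. With the block 4 were higher, of which 2 (RNASE6 and the leading CRISP2) were among those 5 and 2 were the probe sets shared by RSFR and RNASE6. The count of lower members was 0 under each of these settings. At an unadjusted p under 0.05 in limma, the block gave 7 member probe sets higher and 1 lower, the second of CATH1, as did leaving out both replicate 2 arrays. Without those arrays 3185 of all 38439 probe sets were higher and 1174 lower at that p. The like share under the block is not given here, so the blocked count has no background.

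The counts of all probe sets under the alternatives were taken at a fold over 2, whereas those of the members and lists had no fold limit. The falls in these counts can therefore not be set side by side. Among all probe sets with a fold over 2, 208 were higher and 50 lower. The block gave 71 and 12, quantile normalisation 57 and 21, the filter on dim probe sets 414 and 194, and leaving out both replicate 2 arrays 0 and 0. At any fold 785 were higher and 117 lower, and 270 and 45 with the block. Leaving out 1 array gave 9 to 208 higher and 4 to 253 lower at a fold over 2. Over the 79 genes of the 5 related lists, 12 were higher, with 3 under the block, 4 after quantile normalisation, 0 without both replicate 2 arrays and 0 to 9 without 1 array. Of the macrophage markers 5 were higher, with 0 under the block, 3 after quantile normalisation, 10 with the filter on dim probe sets, 8 with trend and robust, 0 without both replicate 2 arrays and 0 to 7 without 1 array. Fewer arrays leave fewer residual degrees of freedom, and the filter adjusts over fewer probe sets. Single arrays left out gave unlike counts, with 208 higher and 253 lower without wound 3, and 9 and 4 without control 3. The cause of the shifts was not tested.

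The small differences of the leading probe sets of the 3 genes not past the test changed sign. The second CATH1 probe set did not, and differed by -0.61 to -0.12 over the alternatives. LECT2 differed by 0.16 without wound 2 and by 0.03 without both replicate 2 arrays, with -0.40 to 0.16 over single arrays left out. CATH1 differed by 0.09 without wound 2 (range -0.41 to 0.09). LYZ differed by 0.10 without control 1 and by 0.11 without wound 2 (range -0.54 to 0.11). After quantile normalisation LECT2, CATH1 and LYZ differed by -0.45, -0.44 and -0.43. The probe sets shared by RSFR and RNASE6 passed with the filter on dim probe sets (adjusted p = 0.0296 and 0.0374) as with the block. Probe sets near the array medians, as CRISP2 and TLR4 in the controls, have little signal over background, which limits what their folds show.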
